A study of Mus musculus with 12 samples.

Results

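The comparison described here is the loss of the Spi1 upstream regulatory element (URE) in LSK cells, the stem and early progenitor cells of mouse bone marrow, measured by ATAC-seq, in which a transposase cuts open chromatin and sequenced fragments mark where it was open. Its members are the 6 LSK libraries of the 12 libraries in the series, 3 from UREd/d mice (URE-LSK) and 3 from wild-type mice (WT-LSK), chosen by their cell type and genotype labels. The other 6 libraries come from granulocyte-monocyte progenitors (GMP) of the same genotypes and enter here only to fit the spread and to show where an effect in LSK differed. All mice were untreated young adults, littermates on a C57BL/6 background, and the element is missing from the germline of UREd/d mice on both alleles, so every cell type lacks it and an effect in LSK may begin in any cell. LSK were sorted as Lin- Sca-1+ c-Kit+ cells after enrichment for c-Kit, a gate that holds stem cells together with several kinds of multipotent progenitor. In such bulk samples a smaller share of one cell kind and less open chromatin per cell cannot be told apart. The labels do not name the mouse behind each library, so p-values measure the spread between these libraries.

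PU.1, the ETS-family transcription factor encoded by Spi1, binds purine-rich sites with a GGAA core and is needed for macrophages, B cells and the common progenitors of both. The URE is an enhancer upstream of the Spi1 promoter that keeps the gene at a high level in blood progenitors, and PU.1 itself binds there. Many genes of the monocyte lineage, such as the receptor gene Csf1r, are direct targets of PU.1, while erythroid and megakaryocyte genes depend mainly on GATA factors and stem cell genes on RUNX, GATA, HOX and MEIS factors.

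The deposited table held raw counts in 121336 open chromatin regions. Total counts per LSK library ran from 23072701 to 46320787, and at these totals 3 counts, used as the floor of detection, were worth 0.0603 to 0.122 CPM (the usual depth-scaled count, here after TMM scaling). Log2 CPM correlated across regions with r of 0.978 to 0.987 within a genotype and 0.784 to 0.846 between genotypes, as a description over regions. Both genotypes held male and female mice by their counts on chromosome Y (1 male library among the wild-type ones and 2 among the others), and with a term for sex 44313 regions were called, against 45536 without it. Of the surface markers of the sort, the region at the Kit start had 38.1 ± 0.913 CPM (SD, n = 3) for wild type and 43.7 CPM for URE-LSK, and was not called (log2 fold change 0.20, SE 0.08). No region of the table lay within 1 kb of a start of Ly6a, which encodes Sca-1, or of Cd3e, Cd8a, Ly6g and Fcgr3. The region at the start of Cd4, a lineage marker that was sorted against, was lower in URE-LSK (log2 fold change -4.89, SE 0.48). The part of cells with this marker in the results was not tested.

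Sequences of 7 regions are shown because the results turn on them: 2 of the stretch that is empty in URE-LSK, 3 that lost accessibility and hold the PU.1 motif GAGGAAGT, and 2 that gained it and hold the RUNX motif AACCACA. Each is 150 bases of the plus strand of GRCm38 around the first match, with the matches on either strand in capitals; for the main region of the element, which holds no match to the PU.1 motif as spelled here, the capitals mark the CEBP motif TTGCNNAA. The Ly86, Meis1 and Lef1 regions are the leading ones at genes named below, and the choice of these 7 was made after values were seen.
Deleted element, main region, chr2:91082965-91083114: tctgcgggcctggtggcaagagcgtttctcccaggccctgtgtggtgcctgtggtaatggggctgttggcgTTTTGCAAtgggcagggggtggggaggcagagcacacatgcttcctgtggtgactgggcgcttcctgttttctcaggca
Empty stretch at the element, upstream region, chr2:91080907-91081056: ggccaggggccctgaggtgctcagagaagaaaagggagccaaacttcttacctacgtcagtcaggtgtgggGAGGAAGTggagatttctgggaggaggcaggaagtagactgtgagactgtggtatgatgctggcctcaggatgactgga
Intron on the side of Trio, lost, chr15:27882983-27883132: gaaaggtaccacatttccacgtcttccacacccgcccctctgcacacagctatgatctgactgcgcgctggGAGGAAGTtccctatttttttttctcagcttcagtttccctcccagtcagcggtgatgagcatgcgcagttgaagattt
Intron of Ly86, lost, chr13:37356655-37356804: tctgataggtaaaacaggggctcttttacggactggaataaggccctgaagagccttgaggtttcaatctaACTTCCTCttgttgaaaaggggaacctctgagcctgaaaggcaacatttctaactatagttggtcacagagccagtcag
Intron of Meis1, lost, chr11:18925019-18925168: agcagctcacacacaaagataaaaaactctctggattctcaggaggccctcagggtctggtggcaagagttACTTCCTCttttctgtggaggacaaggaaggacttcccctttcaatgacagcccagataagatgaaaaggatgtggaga
Intron of Csmd3, gained, chr15:47943303-47943452: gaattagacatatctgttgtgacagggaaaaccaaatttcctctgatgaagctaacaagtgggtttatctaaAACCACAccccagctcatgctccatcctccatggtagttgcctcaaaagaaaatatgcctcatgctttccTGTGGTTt
Intron of Lef1, gained, chr3:131178729-131178878: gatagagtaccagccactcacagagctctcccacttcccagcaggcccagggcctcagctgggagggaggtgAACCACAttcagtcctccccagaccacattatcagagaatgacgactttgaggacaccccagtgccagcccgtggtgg

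In URE-LSK much of the Spi1 locus changed, and not in 1 direction. Of the 19 regions within the gene body and 20 kb on each side, 10 were called lower in URE-LSK and 4 were called higher. Called here means an adjusted p under 0.05 by edgeR's quasi-likelihood test, with Benjamini-Hochberg adjustment over all regions, and an absolute log2 fold change over 1; of all 121336 regions 37.5% were called, 23.9% lower and 13.6% higher. Positions below are given from the Spi1 start codon at position 91096949 of chromosome 2.
The main region of the deleted element, 13.7 kb upstream (chr2:91082790-91083700), had 36.0, 39.7 and 42.4 CPM in the WT-LSK libraries and 0.143, 0 and 0.0427 CPM in URE-LSK, from 6, 0 and 2 counts. The regions centred 15.8 and 14.6 kb upstream were close to empty as well, with 3 and 4 counts summed over the URE-LSK libraries against 472 and 620 in WT-LSK. These 3 neighbours are the only regions of the locus with under 10 counts summed over URE-LSK, and they check the genotype of each library.

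Outside that stretch the changes ran in both directions. The region over the Spi1 start codon (chr2:91096454-91097341) had 36.6, 34.1 and 34.8 CPM in WT-LSK, against 2.83, 8.46 and 5.64 CPM in URE-LSK, a log2 fold change of -2.65 (SE 0.25, adjusted p = 2.20e-07). All 3 URE-LSK libraries were far under the WT-LSK libraries, and they differed among themselves by more than the WT-LSK libraries did. Regions 18.3, 12.3, 10.4 and 9.3 kb upstream fell by 1.70, 2.28, 4.23 and 2.54 on the log2 scale, and so did a region 35.3 kb downstream, beyond the gene, by 2.80. An intronic region 1.4 kb downstream was called lower at -1.26 (SE 0.36), but it was -0.89 and not called without URE-LSK replicate 1.
Toward the end of the gene accessibility rose. The region in a coding exon 18.3 kb downstream (chr2:91115073-91115407) had 2.10, 1.35 and 1.57 CPM in WT-LSK, against 11.2, 10.4 and 12.3 CPM in URE-LSK, with no overlap (adjusted p = 9.88e-09, log2 fold change 2.75, SE 0.18). Its neighbours 16.6 and 13.1 kb downstream rose by 2.28 (SE 0.25) and 1.77 (SE 0.46), the latter being weak, at 0.122 to 0.367 CPM in WT-LSK. A region 12.7 kb upstream, next to the empty stretch, rose by 1.20 (SE 0.31). The region 26.6 kb upstream, at the start of the neighbour Slc39a13 and the strongest of the locus, had 78.4 to 87.2 CPM in WT-LSK, against 90.6 to 99.5 CPM in URE-LSK, and was not called (log2 fold change 0.21, SE 0.08). Further out on chromosome 2, 20.3% of the 177 regions from 40 kb to 1 Mb away were called lower and 9.6% higher, and of the 8851 regions over 10 Mb away 23.5% and 13.7%.

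**Figure D1:**
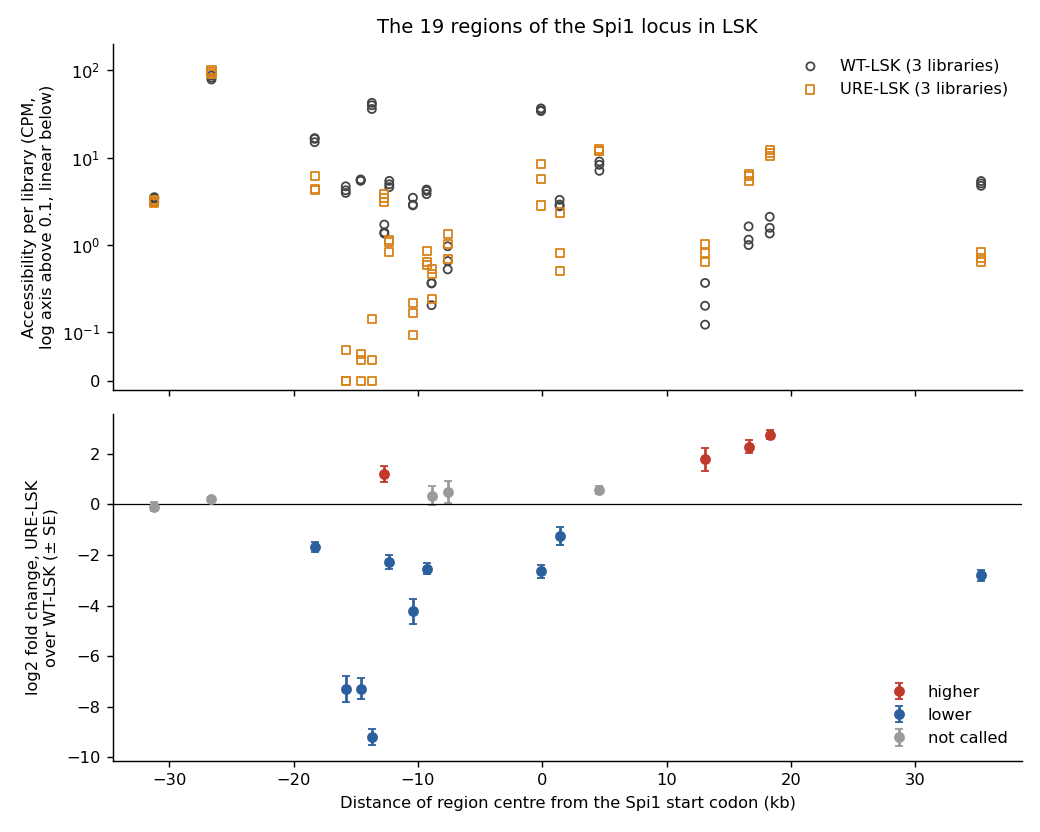
The 19 regions of the Spi1 locus by the distance of their centre from the start codon (kb). The upper panel gives each LSK library's level in CPM, and the lower panel the log2 fold change of URE-LSK over WT-LSK with its SE; the 3 neighbours from 15.8 to 13.7 kb upstream lie lowest, and the regions 13.1, 16.6 and 18.3 kb downstream lie above 0.

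The same question was put to 32 genes of the blood lineages. Each was represented by the region with the highest total count among those no farther than 1 kb from any annotated start, which may lie inside the gene. Of these start regions 24 were not called, 7 were called lower and 1 higher. Of all regions with their centre within 1 kb of a start 11.4% were called lower and 5.64% higher, and of those within 500 bp 8.83% and 4.43%. The start regions of Cybb, Klf1, Mpo, Mecom and Gata2 have their centre more than 1 kb from a start. The lower ones were, besides Spi1, those of Il7r, Csf1r, Ly86, Cybb, Itgam and Gata1, and the higher one was that of Cpa3. The Cpa3 call (1.15) was lost with TMM on promoter regions (0.98) and without WT-LSK replicate 1 (0.97) or WT-LSK replicate 2 (1.0). The uncalled ones had log2 fold changes between -0.59 (Gfi1b) and 0.94 (Bcl11b), the latter called with GC content offsets (1.04).
Csf1r encodes the receptor for the macrophage growth factor M-CSF, and its start region went from a mean of 3.83 CPM in WT-LSK to 0.174 CPM in URE-LSK (log2 fold change -4.42, SE 0.42). At Cybb, a subunit of the phagocyte NADPH oxidase, the start region went from 2.34, 2.77 and 2.59 CPM to 0.119, 0.112 and 0.0427 CPM (-4.81, SE 0.44). At Il7r, the receptor chain on which lymphoid progenitors depend, 5.85, 5.83 and 4.10 CPM in WT-LSK stood against 0.262, 0.698 and 0.192 CPM in URE-LSK (-3.81, SE 0.41). At Gata1, the master factor of erythroid cells, the region fell from 3.08 to 0.526 CPM in the mean (-2.54, SE 0.27). The Gata1 region lies at an internal start too, 13936 bp into the annotated gene. The start region of Itgam, which encodes the integrin chain CD11b, was weak, with a mean of 1.07 CPM for wild type, and its call (-1.28, SE 0.44) was lost with GC content offsets (-1.02) and without URE-LSK replicate 1 (-0.92), URE-LSK replicate 2 (-1.13) or WT-LSK replicate 3 (-1.06).
Many strong start regions differed little between the genotypes. That of Cebpa, the factor that opens the granulocyte-monocyte path, had a mean of 74.9 CPM in both genotypes (log2 fold change 0.00, SE 0.08), and that of Irf8, a factor of monocytes and dendritic cells, had 20 CPM in both (0.00, SE 0.12). The stem cell genes Mecom and Meis1 had 0.25 (SE 0.06) and -0.15 (SE 0.11), and Flt3, the receptor of multipotent progenitors, had -0.13 (SE 0.12).

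At the same genes the whole locus was then searched for the region that changed most. Within the gene body and 20 kb on each side, the called region with the largest change was taken for each gene, among those with at least 2 CPM in the higher genotype and no overlap of the libraries. Since these regions were chosen for their change, the values are a description with no test. Of the 32 genes 28 had such a region, and it was lower in 25 and higher in 3. Hoxa9, Id2, Epor and Itga2b had none. At Il7r, Cybb and Gata1 the region was the start region given above, which at Cybb and Gata1 lies inside the gene. Of the 25 lower regions, those of Flt3, Ly86, Meis1, Mecom, Gata3 and Gfi1 hold the PU.1 motif and the others hold no match. Of all regions called lower 22.7% hold it. Over all called regions 63.8% were lower, and of those that changed over 4-fold 18872 were lower and 5958 higher. These counts follow no rule per locus. The share lower by the rule used here was not computed over all loci, so 25 of 28 has no matching background.
At Flt3 a region 37.2 kb into the gene (chr5:147363060-147363469) had 15.3, 17.5 and 14.6 CPM in WT-LSK, against 0.5, 1.0 and 0.662 CPM in URE-LSK, a log2 difference of -4.46, and it holds 1 PU.1 motif. At Cebpa the region was 19.6 kb upstream (chr7:35099537-35099867), with 4.43, 5.18 and 4.02 CPM against 0.0952, 0.167 and 0.0641 CPM (-5.39). The genotypes were far apart at both regions, while the start regions of both genes were not called.
At Irf8 a region 30.5 kb from the start, beyond the end of the gene, went from 4.99, 6.12 and 5.05 CPM to 0.0952, 0.586 and 0.278 CPM (-4.10). At Ly86, which encodes a partner of a Toll-like receptor, the intronic region shown above had 8.90, 9.14 and 8.95 CPM in WT-LSK, against 0.286, 0.447 and 0.363 CPM in URE-LSK (-4.62). At Gfi1, a repressor in stem cells and granulocyte precursors, a region beyond the gene's end had 5.67, 3.63 and 5.47 CPM against 0, 0.195 and 0.128 CPM (-5.53).
Stem cell genes lost single regions too, though at no higher share than other loci. Of 436 regions at 24 stem cell loci 18.6% were called lower and 10.8% higher. Over the regions of all protein-coding loci the shares were 22.6% and 12.3%. The Meis1 region shown above, 93.9 kb into the gene, went from 29.9, 34.6 and 33.5 CPM to 6.09, 6.78 and 4.59 CPM (-2.49). One intronic region of Mecom had 2.57, 4.32 and 3.20 CPM against 0.167, 0.279 and 0.15 CPM (-4.08), and both regions hold 1 PU.1 motif. At Kit, the stem cell factor receptor, and Gata2 the largest changes were -3.27 and -1.72.
The 3 genes whose largest change was a gain were Bcl11b (1.17), a factor of T cell commitment, Klf1 (1.24), an erythroid factor, and Runx1 (1.79). The Runx1 region, 185 kb into the gene, had 2.26, 2.77 and 1.87 CPM in WT-LSK, against 7.97, 6.25 and 9.23 CPM in URE-LSK, with no overlap.

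**Figure D2:**
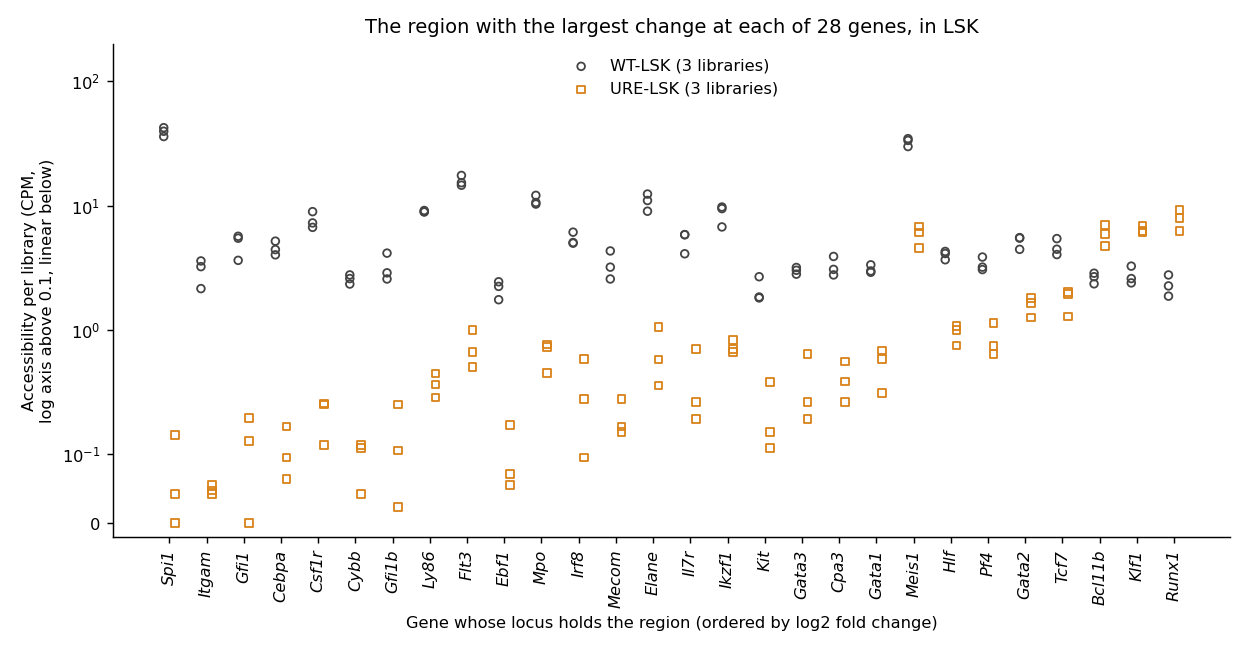
Level in CPM of each LSK library at the region with the largest change of each of 28 genes, ordered by log2 fold change. At the 25 genes from Spi1 to Tcf7 the URE-LSK squares lie under the WT-LSK circles, and at Bcl11b, Klf1 and Runx1 they lie above.

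A value for a whole gene came from summing the counts over all regions of its locus, the gene body and 20 kb on each side. Of 18380 protein-coding loci 14.5% were called (adjusted p under 0.05 by edgeR over all loci and an absolute log2 fold change over 0.5), 7.31% lower and 7.21% higher, and the median log2 fold change was 0.17. This split by direction depended on the scaling: lower loci were 50.3% of the calls with TMM, 38.3% with GC content offsets and 71.9% with TMM on promoter regions, under which the median of all loci was 0.0044. Besides the genes named by rule, Cd79b, Tlr4, Hdc, Ms4a2, Ppbp and Clec1b are given to complete the counts and were chosen after their values were seen. Of 33 loci that were named by rule and called, 23 were called under each of 6 other scalings.

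The monocyte and macrophage loci had the lowest median of the 9 lists. Of 19 loci in this list 7 were called lower and 0 higher by edgeR, with a median of -0.38, and 39.3% of their 206 regions were called lower and 7.28% higher. Cybb, Fcgr1 and Adgre1 changed most. Cybb fell from 9.79, 10.5 and 7.92 CPM in WT-LSK to 0.952, 1.90 and 1.69 CPM in URE-LSK (adjusted p = 2.00e-06, log2 fold change -2.63, SE 0.28). Fcgr1, the high-affinity receptor for IgG, fell from 22, 26.1 and 23.8 CPM to 3.21, 5.02 and 4.44 CPM (-2.51, SE 0.21, adjusted p = 1.16e-07). Adgre1, which encodes the macrophage marker F4/80, fell from 40.9, 50.5 and 40.7 CPM to 7.95, 7.82 and 10.4 CPM (-2.33, SE 0.12, adjusted p = 1.76e-09). In none of the 3 did the genotypes overlap.
Itgam fell by 1.56 (SE 0.10), with 17 of its 21 regions called lower. Tlr4, a receptor for bacterial lipopolysaccharide, fell by 1.05 (SE 0.15), Csf1r by 0.87 (SE 0.08) and Ly86 by 0.70 (SE 0.09), which was not called with GC content offsets. With a window of 50 kb the values were -0.12 at Csf1r and -0.42 at Ly86, and neither was called. Irf8 had -0.42 (SE 0.09) and was under the fold threshold, but 5 of its 17 regions were called lower, and its distal regions taken alone gave -1.02.

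Among loci of PU.1 and its partners, 2 of 15 were called lower and 1 higher, and 1 of the lower ones, Spi1, was called because its sum includes the 3 regions emptied by the deletion. With them it had 219, 222 and 220 CPM in WT-LSK, against 147, 153 and 145 CPM in URE-LSK (log2 fold change -0.57, SE 0.05). Summed over the other 16 regions, a choice made after seeing the data, it had 173, 172 and 169 CPM against 146, 153 and 145 CPM, and was not called (-0.21, SE 0.04). Irf4, a factor that binds DNA together with PU.1, fell from 40, 46.6 and 39.5 CPM to 16.5, 20.2 and 14.1 CPM (-1.31, SE 0.16), and all 4 of its regions were called lower; over the regions with Irf4 as the nearest start the value was -0.25 and not called. Cebpb, the factor of emergency granulopoiesis, was called higher by edgeR at 0.52 (SE 0.09), a call that was lost under 5 of the 6 scalings and without URE-LSK replicate 1 (0.46) or WT-LSK replicate 3 (0.47), while its leading region 8.45 kb upstream (chr2:167679919-167681008) went from 24.7, 26.3 and 22 CPM to 63.6, 51.6 and 58.0 CPM. Runx1 had 0.22 (SE 0.07) and was not called, with 10 of its 44 regions higher and 3 lower.

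Neutrophil loci changed in both directions, with 3 of 18 called lower and 1 higher. Ctsg, which encodes the granule protease cathepsin G, rose from 22.8, 22 and 18.1 CPM to 58.4, 49.6 and 85.7 CPM (adjusted p = 5.97e-07, log2 fold change 1.63, SE 0.16), and 8 of its 11 regions were called higher. Mcpt8, a protease gene of basophils beside it on chromosome 14, rose by 1.53 (SE 0.15), but it shares regions with Ctsg and is not a second observation. Both had their highest level in URE-LSK replicate 3, and without that library they were 1.37 and 1.29. Ms4a3 fell by 0.81 (SE 0.11), Fcnb by 0.70 (SE 0.11) and Elane, the gene of neutrophil elastase, by 0.50 (SE 0.06), the last at the threshold itself and not called with RLE size factors or GC content offsets. Fcnb was not called with GC content offsets, and the gene body with 5 kb on each side gave -0.33. The Elane call was also lost without URE-LSK replicate 1 or 2 or WT-LSK replicate 2 or 3 (-0.47 to -0.49).
Mpo, the myeloperoxidase gene, was split by library. It had 71.2, 64.9 and 67.4 CPM in WT-LSK, against 42.2, 40 and 82.2 CPM in URE-LSK, so that the third URE-LSK library lay above all WT-LSK libraries and the other two below them. The locus was not called (-0.30, SE 0.19), and without URE-LSK replicate 3 it was called lower at -0.72. Cebpa and Gfi1 had -0.06 (SE 0.08) and -0.02 (SE 0.12).

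Mast cell and basophil loci were called lower in 4 of 11 and higher in 2, and 33.9% of their 109 regions were lower. Mitf, a factor of mast cells, fell from 79.7, 81.1 and 85 CPM to 42.4, 45.8 and 38.4 CPM (log2 fold change -0.96, SE 0.08), with 11 of its 16 regions lower. Il1rl1, the receptor for IL-33, fell by 0.80 (SE 0.09), a call lost with a window of 5 kb (-0.34). Hdc, which makes histamine, fell by 0.55 (SE 0.06) and Ms4a2, a chain of the IgE receptor, by 0.50 (SE 0.10), the last at the threshold itself. The Ms4a2 locus overlaps that of Ms4a3 in the neutrophil list, so these are not separate observations. Cpa3, a mast cell protease, was called higher at 0.55 (SE 0.16), and this call was lost under 3 of the 6 scalings, with a term for sex (0.48), with the 6 LSK libraries alone (0.49) and without URE-LSK replicate 3 (0.41) or WT-LSK replicate 2 (0.48). Over distal regions alone the value was -0.05.

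Of 21 erythroid loci 3 were called, 2 lower and 1 higher, a share near the 14.5% of all loci. The adult beta-globin genes Hbb-bs and Hbb-bt fell by 1.72 (SE 0.18) and 1.29 (SE 0.17), but their loci overlap and share a leading region inside Hbb-bs, and reads of near-identical globin copies may be split between them. Gfi1b, a repressor of erythroid and megakaryocyte cells, was called higher at 0.54 (SE 0.09), a call lost under 4 of the 6 scalings and without WT-LSK replicate 2 (0.48). It was also lost with windows of 5 kb (0.16) and 50 kb (0.49), by nearest start (0.13) and with the 6 LSK libraries alone (0.48). The Gfi1b start region had -0.59 and was not called, and the leading region of the locus had -4.69. Gata1 had 0.09 (SE 0.11) over its locus of 3 regions, while its start region fell as given above and the gene body with 5 kb on each side gave -1.69. Klf1 and Epor had 0.20 (SE 0.05) and 0.21 (SE 0.06), close to the median of all loci.
Of 16 megakaryocyte loci 5 were lower and 2 higher, with a median log2 fold change of 0.0583. Of their 186 regions 21.5% were called lower, near the 22.6% over all protein-coding loci, and 7.53% higher, against 12.3%. Vwf, the von Willebrand factor gene that also marks platelet-biased stem cells, fell from 125, 131 and 133 CPM to 75.6, 81.3 and 70.9 CPM (-0.77, SE 0.06), with 11 of its 19 regions lower. Gp6, a platelet receptor for collagen, rests on 1 weak region, at 1.07 to 1.42 CPM in WT-LSK, against 0.0279 to 0.107 CPM in URE-LSK. Clec1b fell by 0.65 (SE 0.12). Pf4 and Ppbp, chemokine genes of platelets that lie side by side, fell by 0.52 (SE 0.10) and 0.50 (SE 0.10), both near the threshold. Their loci overlap and share regions, so they are not separate observations. The Pf4 call was lost with RLE size factors (-0.47), with GC content offsets (-0.33), with windows of 5 kb (-0.45) and 50 kb (-0.46), and when any of 3 single libraries was left out (-0.44 to -0.49, URE-LSK replicates 1 and 3 and WT-LSK replicate 3). Itga2b, the integrin chain CD41, and Rab27b were called higher at 0.57 (SE 0.08) and 0.66 (SE 0.18), and both calls were lost with DESeq2 and with TMM on promoter regions, that of Itga2b under 2 more scalings and with a window of 50 kb (0.43) too.

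Of 24 stem cell loci 1 was called, Tek, the receptor for angiopoietins, which fell from 4.83, 5.51 and 6.41 CPM to 2.19, 3.85 and 2.22 CPM (log2 fold change -1.03, SE 0.26) over 3 weak regions, and over distal regions alone by 0.65, which was not called. Hlf had 0.26 (SE 0.07), Hoxa9 0.23 (SE 0.09), Gata2 0.16 (SE 0.08), Mecom 0.12 (SE 0.07), Kit 0.10 (SE 0.06) and Meis1 -0.22 (SE 0.09). At Mecom 7 regions were higher and 7 lower, and at Kit 4 and 4.

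Lymphoid loci were called in both directions. In the early lymphoid and B list 3 of 21 were lower and 2 higher, and of the 287 regions 24.7% were called lower and 11.5% higher. Il7r fell from 8.71, 9.26 and 7.08 CPM to 1.24, 1.54 and 1.54 CPM (adjusted p = 2.44e-07, log2 fold change -2.53, SE 0.22), with all 3 regions lower. Blnk, an adaptor of the B cell receptor, fell by 0.97 (SE 0.08) and Cd79b, a chain of that receptor, by 0.54 (SE 0.08). Ebf1, the factor that starts the B lineage, was called higher at 0.65 (SE 0.07), with 9 of its 23 regions higher, and the call was lost under 3 of the 6 scalings. Lef1, a factor of the Wnt pathway active in lymphoid precursors, rose from 93.3, 99.9 and 89.4 CPM to 164, 158 and 147 CPM (0.73, SE 0.07). Its intronic region shown above (chr3:131178643-131179328) had 0.551, 0.163 and 0.141 CPM in WT-LSK, against 14.5, 11.4 and 13.8 CPM in URE-LSK.
Ikzf1, the lymphoid factor Ikaros, had -0.18 (SE 0.06) and was not called, though 11 of its 24 regions were lower and 1 higher. Flt3 had -0.19 (SE 0.07) and was not called, with 8 of 20 regions lower. Over the regions with Flt3 as the nearest start it was called lower at -0.61.
In the T and innate lymphoid list 3 of 19 loci were higher and 0 lower by edgeR. Gzma, a granzyme of cytotoxic cells, rose from 0.472, 0.530 and 0.201 CPM to 1.90, 1.03 and 1.5 CPM in its 1 region (1.97, SE 0.37). Bcl11b rose from 13.9, 12.6 and 12.8 CPM to 27.3, 22.7 and 26.8 CPM (0.97, SE 0.11), with 5 of its 8 regions higher. Il2rb, a receptor chain for IL-2 and IL-15, rose by 0.73 (SE 0.12), and with windows of 5 kb (-0.27) and 50 kb (0.43) it was not called. Gata3, Id2 and Tcf7 had 0.30 (SE 0.08), 0.30 (SE 0.07) and 0.08 (SE 0.07).

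**Figure D3:**
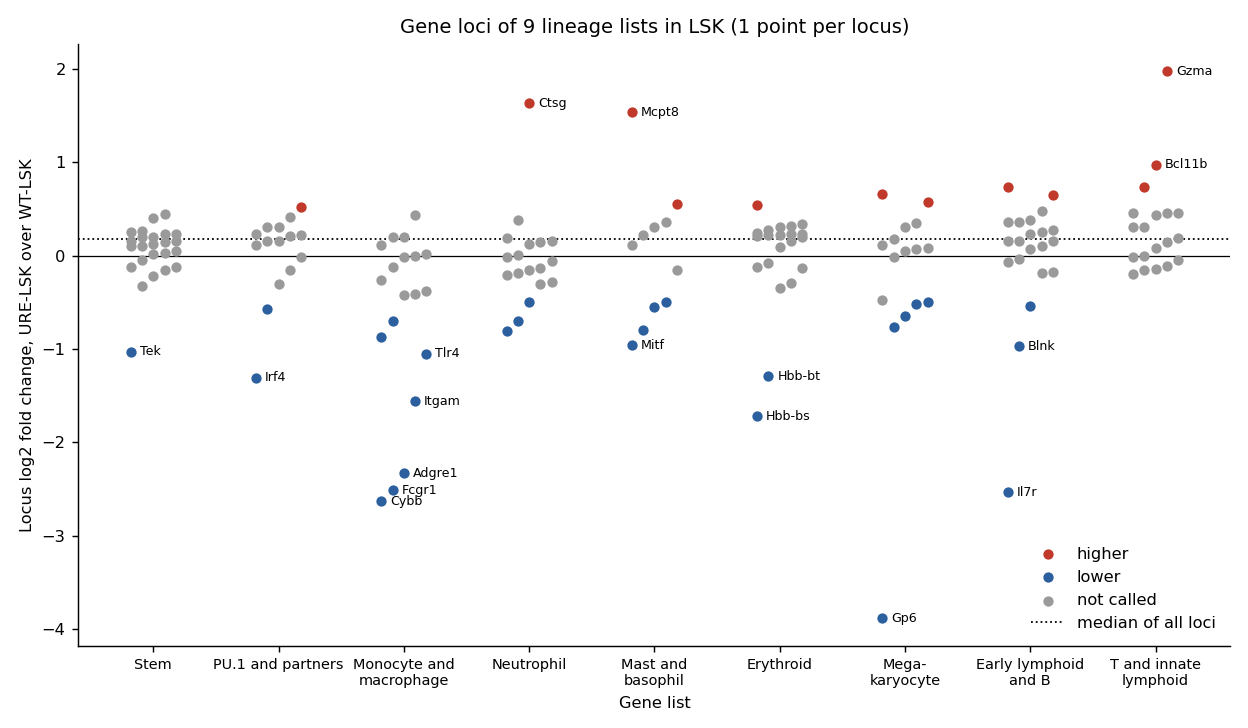
Log2 fold change of each gene locus in URE-LSK over WT-LSK, 1 point per locus, in 9 lists; red and blue points were called higher and lower and grey ones were not called. The dotted line is the median of all loci (0.17); 7 of 19 monocyte and macrophage loci and 1 of 24 stem loci are blue.

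The regions that changed were weaker and farther from starts than those that were not called, which had medians of 3.82 CPM in WT-LSK and 4522 bp from a start, against 10284 bp for gains and 8683 bp for losses. Regions called higher had a median of 0.724 CPM in WT-LSK, against 2.65 CPM in URE-LSK, and those called lower had 2.56 and 0.379 CPM. Promoter regions, with their centre within 500 bp of an annotated start, made up 5.47% of the regions called higher, 6.20% of those called lower and 23.3% of those not called. The share called higher grew with distance from the nearest start, from 4.43% within 500 bp to 29.0% beyond 100 kb, and the share called lower went from 8.83% to 28.8%. Promoters rich in CpG were nearly all uncalled, with 0.943% of 11245 called higher and 0.64% lower, whereas of 9139 CpG-poor promoters 8.71% and 18.9% were called.
Gains were most frequent among regions that were weak in wild type, a level that also enters the fold change and so does not describe it independently. Under 0.5 CPM in WT-LSK 43.0% of regions were called higher and 8.0% lower, and over 10 CPM 1.37% and 11.6%. Regions with a GC share over 60% were called in 2.83% higher and 2.75% lower, and regions that are more than 50% soft-masked repeat in 12.3% and 28.3%. Some regions appeared or vanished outright: 835 regions called higher had at most 3 counts in each WT-LSK library, 46 of them with at least 2 CPM in URE-LSK, and 1236 called lower had at most 3 counts in each URE-LSK library, 196 of them with at least 2 CPM in WT-LSK.
As shares of all counts per library, promoter regions held 50.5% ± 0.829 (SD, n = 3) for wild type and 54.2% ± 0.787 for URE-LSK, and regions with a PU.1 motif 12.5% ± 0.127 and 9.91% ± 0.0918. The genotypes did not overlap in either share (p = 0.1 by an exact permutation test, two-sided, which can go no lower with 3 libraries a group).

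**Figure D4:**
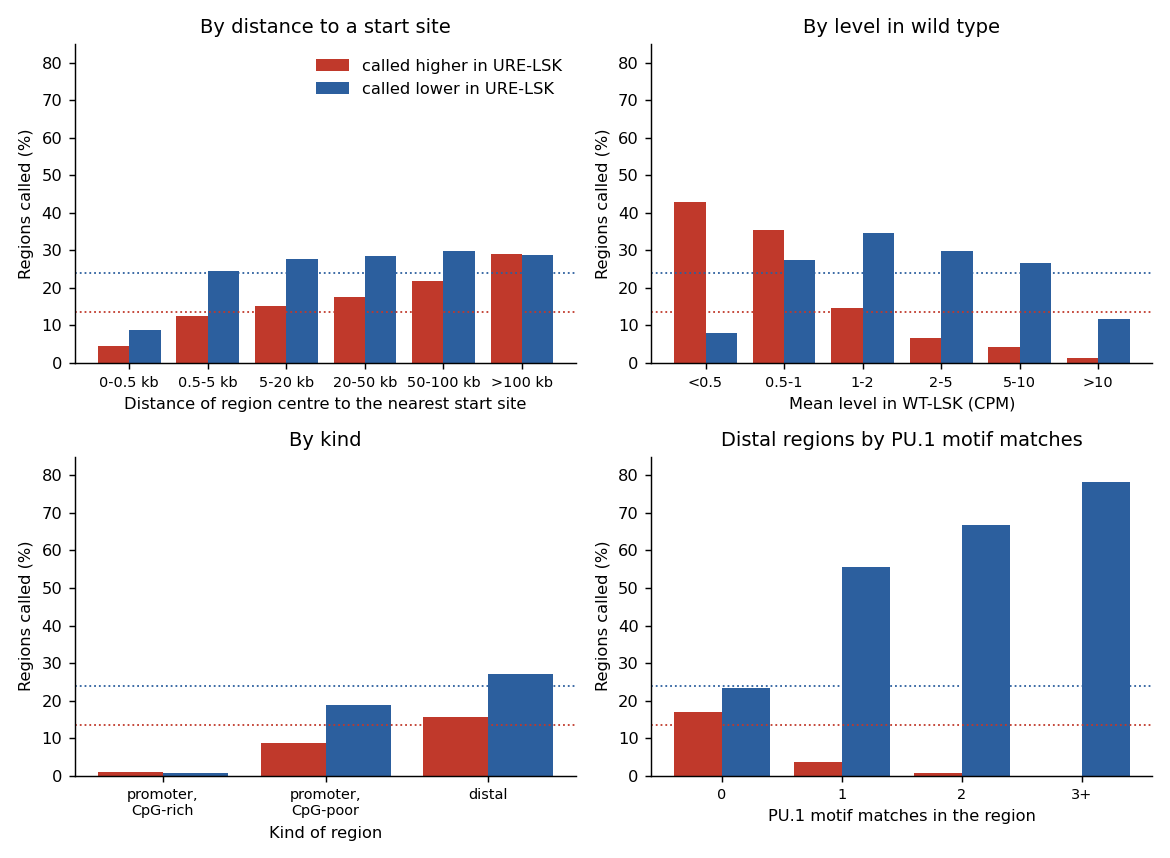
Percent of regions called higher (red) and lower (blue) in URE-LSK by distance to the nearest start, by level in WT-LSK, by kind of region and, for distal regions, by the number of PU.1 motif matches; dotted lines give the percent over all regions (13.6 and 23.9). The percent called lower stands at 78.2 with 3 or more matches, and CpG-rich promoters are near 0.

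Short sequence motifs were searched on both strands of every region. The PU.1 motif GAGGAAGT was in 10.5% of all regions, and of these 51.9% were called lower and 3.30% higher, with a median log2 fold change of -1.13. Distal regions have their centre over 500 bp from every start, so a wide one may still reach a start. Among them 23.4% were called lower with no match, 55.6% with 1, 66.7% with 2 and 78.2% of 55 with 3 or more. The change was largest in narrow regions. Of distal regions with the motif and at most 300 bp wide 68.2% were lower, with a median of -2.02, and of the 736 widest 17.9% were, with a median of 0.00977. Without the motif the share lower also fell between the same width classes, from 23.8% to 9.68%, with medians of 0.171 and 0.248.
The composite motif GGAANTGAA, to which PU.1 binds together with IRF4 or IRF8, was in 5.59% of regions, and of distal ones with it 39.3% were lower and 9.23% higher. It kept a high share without the PU.1 motif as well, with 35.4% of 4920 distal regions lower. By contrast the general ETS motif CCGGAAGT, in 1.88% of regions, had 17.3% lower and 13.1% higher among distal regions.
Gains were most common with the RUNX motif AACCACA, which was in 17.3% of regions, and the AP-1 motif TGANTCA, in 15.1%. Of distal regions with RUNX 23.9% were called higher and 20.5% lower, and with AP-1 22.1% and 21.5%, against 15.5% and 27.0% of all distal regions. The shares differed by whether the PU.1 motif was present, which was not particular to these motifs. Distal regions with RUNX and no PU.1 motif were 25.8% higher and 18.2% lower, and those with both were 6.78% higher and 41.0% lower. For AP-1 the figures were 24.2% and 18.6% without PU.1 and 4.84% and 44.8% with it. Distal regions with neither RUNX nor PU.1 motif were 14.9% higher and 24.6% lower, and those with PU.1 and no RUNX motif 2.88% and 59.3%.
The GATA motif AGATAA and the CEBP motif TTGCNNAA were near the background, with 25.4% and 23.2% of distal regions lower. Regions with the CTCF motif, the site of the insulator protein, were the least changed, with 2.25% of 4491 distal ones lower and 1.89% higher. These matches describe letters in a region and do not show binding.

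**Figure D5:**
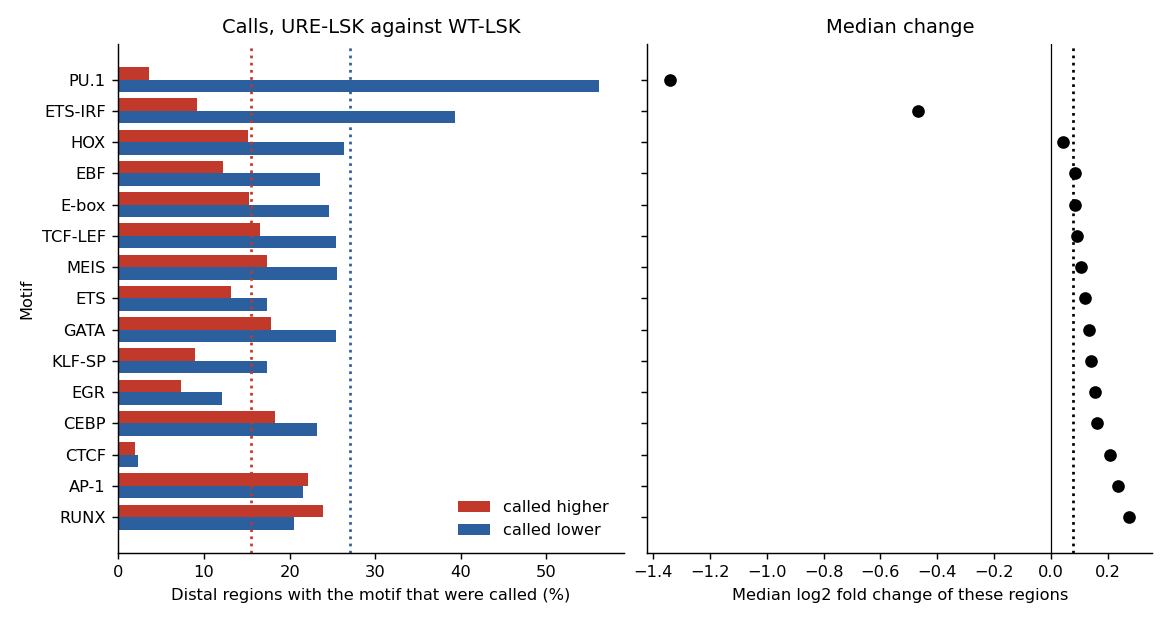
Distal regions with each of 15 motifs: the left panel gives the percent called higher (red) and lower (blue) in URE-LSK and the right panel the median log2 fold change, with dotted lines for all distal regions (15.5, 27.0 and 0.0783). PU.1 (56.2% lower) and ETS-IRF (39.3% lower) stand apart, and RUNX has the highest percent called higher (23.9).

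Over the whole genome, the 5 regions with the largest change in each direction were taken among those with at least 5 CPM in the higher genotype and no overlap of the libraries. They were chosen for their change and are a description. The largest gain was in an intron of Unc5d, a netrin receptor gene of neurons (chr8:29122131-29122448), where no WT-LSK library had a count and URE-LSK had 6.4, 8.40 and 7.88 CPM, at least 282-fold higher against the floor of 3 counts over the group. An intron of Lama2 followed (chr10:27440226-27440595), again with 0 counts in WT-LSK and 7.11, 4.58 and 6.64 CPM in URE-LSK, at least 233-fold higher. The Csmd3 region shown above (chr15:47943148-47943562) had 4 counts in all of WT-LSK and 8.59, 6.14 and 9.36 CPM in URE-LSK. An intergenic region on the side of Zfp64 (chr2:169130708-169131155) had 15.1, 8.85 and 16.9 CPM in URE-LSK from at most 0.122 CPM, and a region in the coding exon of the odorant receptor gene Olfr1264 (chr2:90021337-90021821) had 6.11, 3.43 and 7.67 CPM from at most 0.0603 CPM.
Besides the deleted element, the largest losses were in an intron of Gm807 (chr13:99102346-99102634), with 5.54, 6.24 and 6.37 CPM in WT-LSK, against 2 counts in all of URE-LSK, a ratio of 378 (counting interval 105 to 3120). The region beside Trio shown above (chr15:27882928-27883213), with 1 PU.1 motif, had 4.83, 5.71 and 5.01 CPM and 3 counts (ratio 212, interval 72.5 to 1030). An intergenic region on chromosome 8 (chr8:42210037-42210363) had 4.43, 8.40 and 2.90 CPM and 3 counts, and one upstream of Kynu, an enzyme of tryptophan breakdown (chr2:43542617-43542977), 5.64, 5.38 and 7.96 CPM and 4 counts. Of these 10 regions, 2 hold the PU.1 motif, those beside Trio and in Olfr1264.

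Changes also came in blocks, described here after their values were seen. Runs of 5 or more neighbouring regions called in 1 direction held 954 of the regions called higher (5.78%) and 1942 of those called lower (6.69%). The longest lower run was 46 regions over 1135 kb of chromosome 5 (10783695 to 11918710) around predicted genes, with summed levels of 188, 186 and 138 CPM in WT-LSK, against 17.4, 30.9 and 24.3 CPM in URE-LSK; 1 of its regions holds the PU.1 motif. A lower run of 13 regions on chromosome 4 began 208.7 kb from the start of Klf4, a factor of monocytes. The run had 34.6, 40.9 and 33.8 CPM in WT-LSK, against 3.59, 4.47 and 4.49 CPM in URE-LSK. The Klf4 locus itself had 0.43 (SE 0.07) and was not called, with 0 of its 5 regions called lower. Another lower run, of 12 regions on chromosome 13, spanned Irf4 and Dusp22 (66.2, 75.3 and 62.8 CPM against 18.8, 23.4 and 16.4 CPM).
The longest higher run was 18 regions over 415 kb of the immunoglobulin heavy chain variable genes on chromosome 12 (113917526 to 114332844), with 27.3, 19.5 and 21.4 CPM in WT-LSK, against 112, 104 and 110 CPM in URE-LSK. A second one of 12 regions lay in the same gene cluster (114764187 to 114927362), with 28.3, 27.1 and 21.6 CPM against 66.6, 60.7 and 67.4 CPM. Reads of the near-identical copies in this cluster and in the chromosome 5 block may be placed on either copy, so single regions there are uncertain.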

How the data were processed

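ATAC-seq was made by the authors from sorted bone marrow cells with the OmniATAC protocol, 3 libraries for each of 4 groups. Per the methods and the submitters' notes, adapters were removed with cutadapt, reads were aligned to GRCm38 with Bowtie2, open regions were called per group with Genrich and merged with bedtools, and featureCounts gave the deposited raw counts per region, 121336 regions by 12 libraries. Versions, and whether fragments or read ends were counted, are not given in the sources used here. Regions called in any group enter the table, so a region may be at the floor in LSK. Starts were taken as 0-based and are printed 1-based.

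Counts were tested with edgeR 4.0.16 (R 4.3.3) by the quasi-likelihood test with TMM scaling, over all 12 libraries with 1 coefficient per group, and Benjamini-Hochberg adjustment over all regions or loci. SE is the absolute log2 fold change divided by the root of the F statistic. Intervals of ratios and the floor of 3 counts cover counting error only. The script was tested on simulated data. A locus is a protein-coding gene of GENCODE with 20 kb on each side. DESeq2 1.42.0 and other scalings, filters and windows were alternatives.

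The members, gene lists and tests were chosen with earlier results of these data known. Named were all regions of the Spi1 locus, 32 listed genes, the 3 called loci with the largest change per list, the leading region of each, and the 5 largest changes in each direction with at least 5 CPM. Replicate numbers did not pair the genotypes, but within a genotype same-numbered LSK and GMP libraries deviated together (r of 0.112 to 0.319), so the difference between cell types was also fitted with these pairs as a block. No set tests were run. Some markers of the sort are not reported here.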

Additional observations from a re-analysis of the deposited data

Results flagged for a closer look

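The values here are tests of whether the genotype effect differed between GMP and LSK, as the log2 effect in GMP minus that in LSK, each with an adjusted p under 0.05 by edgeR and a size over 0.5 for loci and over 2 for regions. Their causes were not tested. Libraries of 1 genotype with the same number correlated between LSK and GMP in their deviations from the group means (r of 0.112 to 0.319 over regions), so they may come from the same mouse, which the labels do not say. The values below treat the libraries as independent. With each genotype and number as a block, a fit added after seeing the data, all 36 differences given here kept their sign and stayed past these thresholds.

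The loss was smaller in GMP at Il7r (difference 1.44, SE 0.30), Cybb (1.66, SE 0.37), Itgam (0.67, SE 0.13), Adgre1 (1.47, SE 0.16) and, with values of opposite sign, the neutrophil locus Fcnb (1.13, SE 0.15, from -0.70 in LSK to 0.43 in GMP). Elane (0.64) went from -0.50 to 0.13, Mpo (0.89) from -0.30 to 0.59 and Gfi1 (0.59) from -0.02 to 0.57. Bcl11b rose further in GMP (0.97), and Lef1 (-0.59) and Ctsg (-0.64) rose less.
The effect was lower in GMP at 5 further named loci. Meis1 had -1.04 (SE 0.13), from -0.22 in LSK to -1.26 in GMP, Hoxa9 -0.61, Tek -2.16, Hbb-bs -1.54 and Gfi1b -0.78, from 0.54 to -0.24.

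Among regions, that at the Spi1 start codon differed by 2.13 (SE 0.33), from -2.65 in LSK to -0.52 in GMP. The leading regions, chosen for a large change in LSK and so apt to be smaller elsewhere, differed by 3.51 at Elane, 3.09 at Adgre1, 2.88 at Gfi1, 2.74 at Ly86, 2.52 at Il1rl1, 2.49 at Irf8, 2.37 at Mitf, 2.31 at Mecom, 2.23 at Ebf1, 2.14 at Cybb, 2.06 at Mpo, 2.05 at Fcnb, 2.02 at Fcgr1 and -2.08 at Lef1. The same holds for the largest changes of the genome, with -5.25 in Unc5d, -7.13 in Lama2, -4.30 in Csmd3, 4.22 in Gm807 and 4.43 beside Kynu. The differences in Unc5d and Lama2 rest on 0 counts in WT-LSK and depend on the prior count. The leading regions given at Mpo and Il1rl1 lie in introns of Lpo and Il18r1.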

How the results depend on the processing

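Regions called were 21525 (8125 higher, 13400 lower) with a minimum mean CPM, which tests fewer regions, 68896 (33840 higher) by adjusted p alone, and 8650 higher with glmTreat. Lower calls were 63.8% of all with TMM, 55.8% with loess offsets, 55% with GC content offsets, 68.4% with library size only, 70.2% with TMM on promoter regions and 72.5% with glmTreat. Loci called were 1583 (791 higher, 792 lower) with a minimum mean CPM, 11246 (8773 and 2473) by adjusted p alone, 1317 (497 and 820) with glmTreat and 6001 (2554 and 3447) with distal regions only. Higher loci numbered 742 with DESeq2, 841 with library size only and 715 with TMM on promoter regions, against 1325. Leaving out 1 library gave 42947 to 46659 regions and 2488 to 2813 loci. The median change of regions with the PU.1 motif was -0.972 with loess offsets, -0.915 with GC content offsets, -1.34 in distal regions and -0.59 with a mean CPM of at least 2.

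Locus values changed sign with the window: at 50 kb Elane had 0.09, Blnk 0.04, Gzma -0.23 and Gp6 0.29, at 5 kb Gata1 had -1.69 and Il2rb -0.27, by nearest start Gata1 had -1.69, and over distal regions Cpa3 had -0.05; the cause was not tested. At 50 kb Spi1 had -0.15. With the replicate block 45942 regions and 2711 loci were called. Same-numbered libraries of the genotypes correlated in their deviations with r of 0.15, 0.0627 and -0.109, so they share only a number.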
